A study of Mus musculus with 13 samples.

Results

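The step described here is the passage from Ter119+ CD71+ to Ter119+ CD71med erythroblasts in control mouse fetal liver at E14.5, that is, in mid-gestation. Its members are 5 arrays of the 13 in the series, chosen by the sorted population and the genotype in the labels and not by any measured value. They are the Ter119+ CD71+ arrays of control embryos 2, 13 and 15 and the Ter119+ CD71med arrays of control embryos 13 and 15, so both populations were measured in 2 embryos. The series also holds the less mature Ter119- CD71+ population of the same 3 control embryos, which is used below to place the step. A further 5 arrays are of embryos that lack Adar in the erythroid lineage. These enter the estimate of the spread and the means over the 13 arrays, which set the probe set and the level of a gene. Every value is a log2 expression value made by RMA, a method that corrects the background of an array, equalises the distributions of the arrays and summarises the probes of a probe set into a single number.

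The 3 control embryos carried an Adar1 genotype of fl/+, an EpoR-Cre genotype of ki/+ and an R26eYFP genotype of ki/+, on a background labelled C57JB6. EpoR-Cre is a Cre recombinase placed at the gene of the erythropoietin receptor, so it acts in erythroid cells, and the control cells compared here carry Cre, the reporter and a floxed copy of Adar in both populations. There was no group without Cre. The embryos of the deleted group carried fl/- at Adar1 and ki/+ at EpoR-Cre, with R26eYFP ki/+ in embryo 1 and +/+ in embryos 10 and 11. Each array held RNA of cells sorted from a single animal, and the numbers in the sample names are read here as embryo numbers. The sort used 2 surface proteins: Ter119, a surface antigen that appears as erythroblasts mature, and CD71, the transferrin receptor encoded by Tfrc.

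In the fetal liver, definitive erythroblasts pass through a short series of divisions while they fill with hemoglobin, shrink, condense the nucleus and finally expel it. CD71 imports transferrin-bound iron for heme and is high in dividing erythroblasts, then declines as the cells leave the cell cycle. Over the same period the nucleolus, the ribosomes and the mitochondria are reduced, with autophagy and ubiquitin enzymes such as UBE2O taking part in the clearing of proteins and organelles.

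The arrays carried the defining genes of erythroblasts. Alas2, which starts heme synthesis, had log2 values of 12.28, 12.01 and 12.27 in the CD71+ arrays and 12.64 and 12.46 in the CD71med arrays. Gata1, the master transcription factor of the lineage, lay between 10.06 and 10.53 in the CD71+ arrays and at 10.29 and 10.25 in the CD71med arrays, and its adjusted p was 0.862. Tfrc, whose protein defined the gate, had values of 12.52, 12.23 and 12.20 in CD71+ and 12.48 and 12.47 in CD71med cells, which overlapped, and the difference of 0.16 ± 0.12 (SE) did not pass the test (adjusted p = 0.396). Adar had values of 7.43, 7.72 and 8.37 against 8.11 and 8.54, and its difference of 0.48 ± 0.25 (SE) did not pass either (adjusted p = 0.239).

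The 2 CD71med arrays were the less alike group. The median gap between them, taken over genes, was 0.205 log2 units, and that between any pair of the control Ter119+ CD71+ arrays was 0.123 to 0.137. Their upper quartiles were 7.41 and 7.30, below the 7.51 to 7.53 of the CD71+ arrays. The difference between the groups also moved with the level of a gene: among the 6646 genes with the highest mean over the 13 arrays the median difference was -0.23, and among the 6646 genes with the lowest mean it was 0.14. The median over all 19938 genes was 0.08. The part that this trend, RNA quality or the amount of RNA per cell has in the differences below was not tested. In sorted bulk samples a smaller number of cells of a type and less RNA per cell cannot be told apart, and equalised arrays show shares of the RNA, not amounts per cell.

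Between the 2 populations 2656 of 19938 genes changed at an adjusted p under 0.05, 13.3% of those tested. Each p-value comes from limma's moderated test with a single spread fitted over all 5 groups, with a Benjamini-Hochberg adjustment across the whole table, and a gene that passes is called. Of the called genes 820 were higher in CD71med cells (4.11% of genes tested) and 1836 were lower (9.21%). At least 2-fold changes were called for 126 genes upward (0.632%) and 359 downward (1.8%). Called genes lay mostly among the well expressed genes: of the 6646 with the highest mean, 25.3% were called lower and 6.11% higher, and of the 6646 with the lowest mean, 0.0451% were called lower and 2.95% higher. With each array centred on its own median, 469 genes were called higher and 1862 lower, so the lower calls made up 79.9% of all calls in place of 69.1%.

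The differences ran the same way in both embryos. All 2656 called genes had a difference of the same sign in embryo 13 and in embryo 15, as had 67.2% of all genes, and in 2654 of the called genes the CD71med arrays lay wholly outside the range of the CD71+ arrays, where 44% of all genes did so. These embryo values are the ones the test used and are given as a description. So are the statements below that the arrays of a called gene do not overlap, which held for nearly every called gene. The call depended on single arrays. Without the CD71med array of embryo 15 there were 332 higher and 535 lower calls, and without the CD71+ array of embryo 15 there were 474 and 1054. Without the CD71+ array of embryo 13 there were 530 higher calls, and without the CD71med array of embryo 13 there were 1125. Over the 5 fits that each left out an array, 213 genes were called higher and 459 lower in every fit. The genes named below belong to these 672 unless the text says otherwise.

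**Figure D1:**
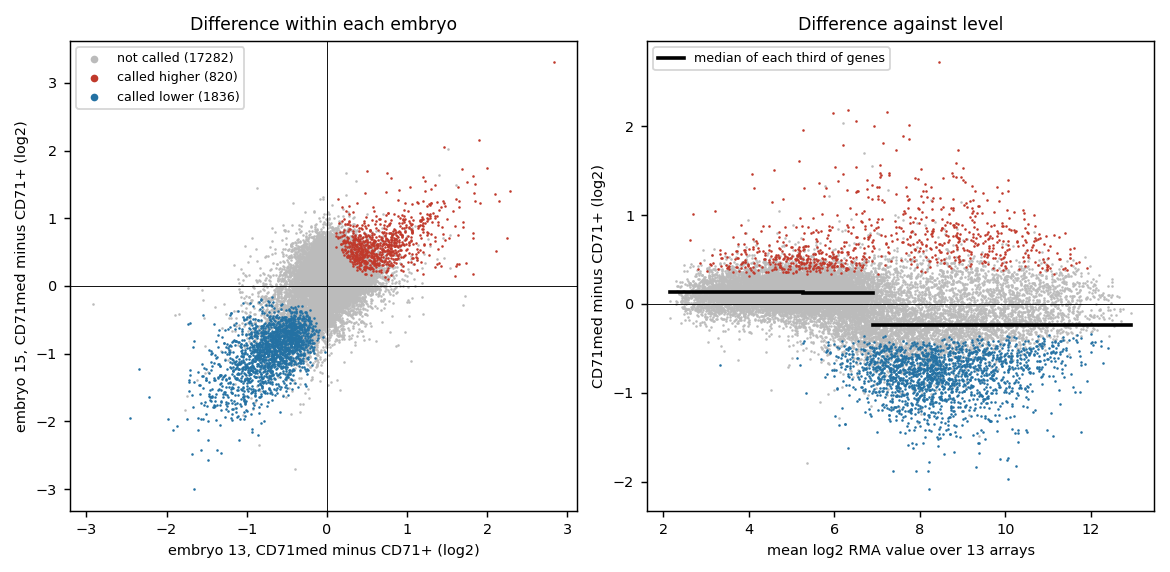
Left, the CD71med minus CD71+ difference of each gene (log2 units) in embryo 13 on the x axis and embryo 15 on the y axis. Right, the mean of the 2 CD71med arrays minus the mean of the 3 CD71+ arrays against the mean log2 RMA value over the 13 arrays. Each point is a gene, red for the 820 called higher, blue for the 1836 called lower and grey for the rest; black bars are the medians of 3 equal groups of genes by level, 0.14, 0.12 and -0.23. Called genes lie at the lower left and upper right of the left plot, and most blue points of the right plot lie at levels above 7.

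The largest rise was that of Hbb-y, the embryonic beta-like globin epsilon-y, which was 6.59-fold higher in CD71med cells. Its values were 9.74, 8.97 and 8.42 in the CD71+ arrays of embryos 2, 13 and 15 and 11.81 and 11.72 in the CD71med arrays of embryos 13 and 15, a difference of 2.72 ± 0.39 (SE) log2 units (adjusted p = 0.000762). The groups did not overlap, and the CD71med arrays lay closer together than the CD71+ arrays. Ang6, a member of the angiogenin ribonuclease family, was 4.16-fold higher with an adjusted p of 7.04e-05. Tcp11l2, an abundant transcript of late red cells, was 4.03-fold higher: it read 8.66, 9.69 and 9.85 in the CD71+ arrays and 11.44 and 11.38 in the CD71med arrays. Cd36, the fatty acid and thrombospondin receptor carried by erythroblasts, was 3.70-fold higher, at 8.34, 9.16 and 9.52 against 11.01 and 10.77. For Tcp11l2 and Cd36 the CD71+ array of embryo 2 was the lowest.

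Other genes among the 15 largest rises were Ifit1 (4.53-fold) and Clec4e (4.44-fold), an interferon-induced gene and a C-type lectin known from myeloid cells, and the methyltransferase gene Etfbkmt (4.0-fold), Amn1 (3.33-fold), Hba-x (3.32-fold), Fam220a (3.0-fold) and Atg14 (2.94-fold). Rsad2, an interferon-induced antiviral gene, was 4.48-fold higher but lost its call without the CD71med array of embryo 15 (adjusted p = 0.0682). Anxa1, an annexin of myeloid cells, was 3.44-fold higher and lost its call in each of the 5 fits that left out an array, with adjusted p-values of 0.0582 to 0.125.

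The largest fall was that of Ttc27, 4.24-fold lower, with values of 7.23, 7.97 and 7.99 in CD71+ and 6.30 and 4.99 in CD71med cells. The 2 CD71med arrays of Ttc27 differed by more than the CD71+ arrays did. Slc38a1, a transporter of neutral amino acids including glutamine, was 3.93-fold lower, at 9.30, 9.53 and 9.72 against 7.84 and 7.24 (adjusted p = 7.04e-05). Scpep1, a serine carboxypeptidase, was 3.69-fold lower, and Sfxn1, a mitochondrial carrier of serine, was 3.54-fold lower. Cdca7l, a MYC-interacting factor, was 3.44-fold lower. Ppp1r14b, 3.57-fold lower, lost its call without the CD71med array of embryo 15 (adjusted p = 0.0794). Several of the largest falls belong to genes of growth and nucleotide synthesis that are described with their groups: Cdk4, Atic, Myc and Mthfd1.

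**Figure D2:**
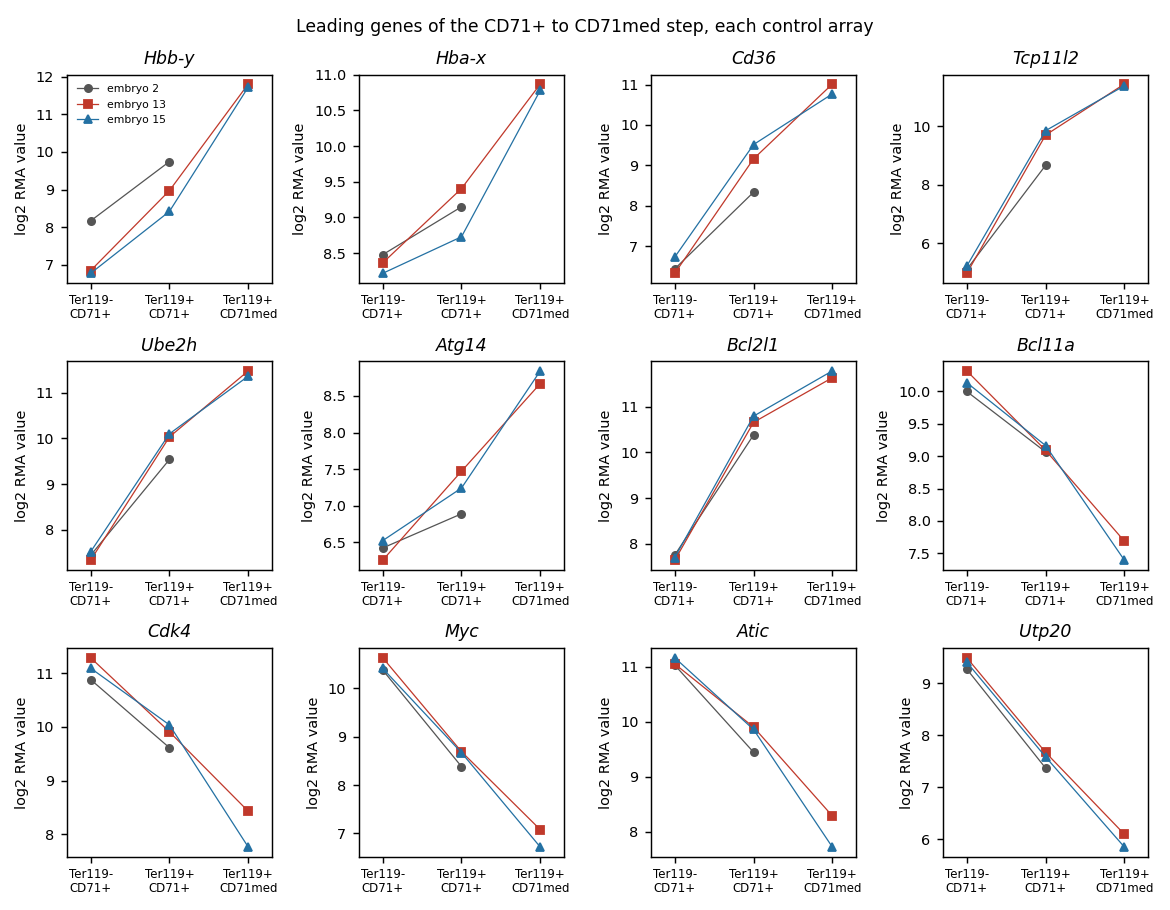
Log2 RMA values of 12 genes in each control array. The x axis gives the 3 sorted populations in order of maturation, lines join the arrays of an embryo (grey circles embryo 2, red squares embryo 13, blue triangles embryo 15), and embryo 2 has no CD71med array. In each panel both CD71med arrays lie outside the range of the 3 CD71+ arrays, above it for Hbb-y, Hba-x, Cd36, Tcp11l2, Ube2h, Atg14 and Bcl2l1 and below it for Bcl11a, Cdk4, Myc, Atic and Utp20. This was so for 2654 of the 2656 called genes.

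Most globin genes measured by their own probe sets were called higher. Of 6 measured globins 4 were called higher and none lower, against 4.11% and 9.21% of all genes, and the median difference of the 6 was 1.17. Hba-x, the embryonic zeta globin, read 9.15, 9.41 and 8.73 in CD71+ and 10.87 and 10.78 in CD71med cells, 3.32-fold higher (adjusted p = 8.59e-05). Hbb-bh2 was 1.95-fold higher and Hbq1a, a theta globin, was 2.61-fold higher. The other two did not pass the test: Hbq1b differed by 0.47 (adjusted p = 0.0528, and 0.0454 with the embryo as a block) and Hbb-bh1, a further embryonic beta-like globin, by 0.59 (adjusted p = 0.271). Hbb-bh1 and Hbq1b had already risen in the step before, from Ter119- CD71+ to Ter119+ CD71+ cells, by 2.87 and 2.61 log2 units. The 4 called globins were called in each of the 5 fits that left out an array. Hbq1a and Hbq1b are near-identical copies, and the beta-like globins resemble each other and the adult chains, so probes may share signal between them. The adult alpha and beta chains were not analysed here. In a bulk sort a rise within each cell and a changed mix of erythroid cells cannot be told apart. Neither was tested for these globins.

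The 150 bases before the annotated start of Hbb-y are shown because this gene had the largest rise, with the CCAAT box, the site of the factor NF-Y, in capitals. The stretch is chr7:103853208-103853357 on the minus strand of GRCm38.p6, taken from RefSeq and printed 5′ to 3′.
Hbb-y: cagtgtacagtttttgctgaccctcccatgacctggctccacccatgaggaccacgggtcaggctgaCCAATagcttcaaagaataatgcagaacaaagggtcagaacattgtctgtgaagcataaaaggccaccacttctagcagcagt
The CCAAT box begins 83 bases before the start. The letters CCAAT, searched on both strands of 300-base windows (250 bases before to 50 after each start), were found in 37.0% of promoters of called higher genes, 38.0% of those of called lower genes and 37.4% of all genes tested, so the match is common and does not set the called genes apart.

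Of 14 measured repressors and developmental regulators of globin genes 6 were called lower and none higher, 9 of the 14 differences were negative, and without the CD71med array of embryo 15 the lower calls numbered 1. That gene was Bcl11a, the repressor that silences embryonic and fetal globins, which read 9.06, 9.09 and 9.16 in the CD71+ arrays and 7.69 and 7.39 in the CD71med arrays, 2.96-fold lower (adjusted p = 7.04e-05). The CD71+ arrays of Bcl11a lay within a narrow range, and both CD71med arrays were far below it. In a bulk sort a fall of Bcl11a within each cell and a changed mix of cells cannot be told apart. The list's share of lower calls, 42.9%, stood against 9.21% of all genes and 25.3% of the 6646 genes with the highest mean, to which 9 of the 14 belong. Igf2bp1 and Lin28b, RNA-binding proteins of the fetal programme, were 2.44-fold and 1.76-fold lower, and both lost their call without the CD71med array of embryo 15. Another probe set of Igf2bp1 differed by -0.34, and not every probe set of that gene was called. Nr2c2, an orphan receptor that binds globin promoters, was 1.57-fold lower and also lost its call without the CD71med array of embryo 15.

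Of 35 measured genes of late erythroid maturation 17 were called higher (48.6%, against 4.11% of all genes) and 2 lower (5.71%, against 9.21%). The median difference was 0.48, and 32 of the 35 were positive. Leaving out the CD71med array of embryo 15 gave 12 higher calls. Bpgm, which makes the 2,3-bisphosphoglycerate that loosens oxygen from hemoglobin, read 10.47, 10.99 and 11.21 against 12.16 and 12.17, 2.42-fold higher. Bcl2l1, whose product BCL-XL protects late erythroblasts from death, read 10.38, 10.66 and 10.79 against 11.63 and 11.78, 2.14-fold higher (adjusted p = 0.000357). For both genes the CD71med values lay above each CD71+ value. Tent5c, a poly(A) polymerase, Ypel3 and Mkrn1, a ubiquitin ligase, were 2.12-fold, 2.12-fold and 2.07-fold higher. Gadd45a, a stress and growth-arrest gene, was higher by 0.96 ± 0.11 log2 units, and Tspo2, a red cell sterol-binding protein, by 0.89. The 2 members called lower, Acp5 and Tlcd4, were not called in every fit that left out an array. In the preceding step, which shares the CD71+ arrays and called 7.27% of all genes higher and 11.7% lower, 31 of the 35 were called higher, with a median difference of 1.25.

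Of 52 measured ubiquitin enzymes known from terminal maturation 23 were called higher and 3 lower, with a median difference of 0.40, and 16 were called higher without the CD71med array of embryo 15. The list's shares over all arrays, 44.2% higher and 5.77% lower, stood against 4.11% and 9.21% of all genes. Ube2h, a conjugating enzyme that works with the MAEA ligase complex, read 9.54, 10.03 and 10.10 in CD71+ and 11.48 and 11.36 in CD71med cells, 2.88-fold higher. Ube2b was 2.63-fold higher and Ube2o, which marks ribosomal proteins and unpaired alpha globin for destruction, 2.20-fold higher. Trim58, a ligase that removes dynein before the nucleus is expelled, was 2.49-fold higher, at 7.41, 7.17 and 7.71 against 9.0 and 8.49. Members of the MAEA complex were smaller in their change: Rmnd5a was higher by 0.69 and Wdr26 by 0.51, while Gid4 was called lower, with an adjusted p of 0.098 without the CD71med array of embryo 15. Of 38 proteasome genes 2 were called higher (5.26%) and 4 lower (10.5%), near the 4.11% and 9.21% of all genes. All 38 lie among the 6646 genes with the highest mean, of which 6.11% were called higher and 25.3% lower.

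Genes of autophagy, the pathway that removes mitochondria and other organelles, were called higher in 16 of 45 measured members (35.6%, against 4.11% of all genes) and lower in 4 (8.89%, against 9.21%). The median difference of 0.10 was close to the 0.08 of all genes, and 19 of the 45 differences were negative. Without the CD71med array of embryo 15 these counts were 11 and 1. The members that rose span the pathway. At its start, Ulk1, the initiating kinase, was 2.09-fold higher, Rb1cc1, its scaffold, 2.06-fold higher, and Atg14, which directs the lipid kinase, 2.94-fold higher, with values of 6.89, 7.47 and 7.24 against 8.67 and 8.84. Of the ubiquitin-like proteins that coat the membrane, Map1lc3b was 2.03-fold and Gabarapl2 2.17-fold higher, and Gabarapl1 was higher by 0.82. Cargo receptors rose too: Calcoco1 was 2.42-fold higher, and Sqstm1 and Tax1bp1 were higher by 0.99 and 0.77. Pink1, the kinase that flags damaged mitochondria, was 2.25-fold higher. Bnip3l, the receptor known for clearing mitochondria from reticulocytes, differed by 0.28 on the probe set kept and did not pass the test (adjusted p = 0.1). It read 12.78, 12.67 and 12.71 in CD71+ cells and 13.06 and 12.94 in CD71med cells. The probe sets of Bnip3l differed by 0.28 to 0.36. Some but not all of them were called when each probe set was tested. The highest value on any array was 13.51, and whether the upper end of the scale limited the rise of Bnip3l was not tested. Atg4c, a protease of the pathway, fell by 1.0.

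Most genes of the replication machinery were called lower. Of 50 measured genes of DNA replication 33 were called lower and none higher, against 9.21% and 4.11% of all genes, and 48 of the 50 had a negative difference, with a median of -0.66. All 50 lie among the 6646 genes with the highest mean, where 25.3% of genes were called lower. Leaving out the CD71med array of embryo 15 left 16 calls, and leaving out the CD71+ array of embryo 15 left 26. Pole, the catalytic subunit of the leading-strand polymerase, read 9.52, 9.20 and 9.48 in CD71+ and 8.39 and 8.06 in CD71med cells, 2.25-fold lower (adjusted p = 0.000334). Dna2, a nuclease and helicase that trims Okazaki fragments, read 9.35, 9.25 and 9.34 against 8.29 and 7.93, 2.31-fold lower. Both CD71med arrays of these genes lay below each CD71+ array. Subunits of the clamp loader fell together, Rfc2 by 1.15, Rfc1 by 0.84, Rfc5 by 0.80 and Rfc4 by 0.77. Of the MCM helicase, Mcm3 fell by 0.98, Mcm2 by 0.90, Mcm4 by 0.82, Mcm7 by 0.74 and Mcm5 by 0.69; Mcm6, called at a fall of 0.54, had an adjusted p of 0.0614 without the CD71med array of embryo 15. The licensing factor Cdc6 fell by 0.76 and the GINS subunits Gins2 and Gins1 by 0.83 and 0.64. Pcna, the clamp itself, read 12.61, 12.50 and 12.47 against 12.57 and 12.41 and was not called, at a difference of -0.04 (adjusted p = 0.846).

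In the preceding step 3 of the 50 replication genes were called higher and 1 lower, with a median of 0.02. The mean level of the list was 9.91 to 10.002 in the Ter119- CD71+ arrays, 9.91 to 10.01 in the Ter119+ CD71+ arrays and 9.26 to 9.43 in the CD71med arrays. The test of the difference between the 2 steps, which share the CD71+ arrays, called 2 of the 50 genes, so for single genes a change of pace was mostly not detected.

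Promoters of 3 replication genes that fell in every fit are shown for the E2F core, TCCCGC, the site of the factors that switch on genes of S phase. Each is the 150 bases before the start in RefSeq on GRCm38.p6, 5′ to 3′, with the core in capitals on whichever strand it lies: chr10:62946879-62947028 on the plus strand for Dna2, chr16:23127731-23127880 on the minus strand for Rfc4, and chr8:75109359-75109508 on the plus strand for Mcm5.
Dna2: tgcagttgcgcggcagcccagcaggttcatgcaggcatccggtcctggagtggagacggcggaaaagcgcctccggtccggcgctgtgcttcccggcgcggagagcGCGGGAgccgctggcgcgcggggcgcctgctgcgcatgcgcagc
Rfc4: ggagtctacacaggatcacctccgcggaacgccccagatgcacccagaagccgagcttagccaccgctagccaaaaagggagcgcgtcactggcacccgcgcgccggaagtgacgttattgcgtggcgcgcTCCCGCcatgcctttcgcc
Mcm5: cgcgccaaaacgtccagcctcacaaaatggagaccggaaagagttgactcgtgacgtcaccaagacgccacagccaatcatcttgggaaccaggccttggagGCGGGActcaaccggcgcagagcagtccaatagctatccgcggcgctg
The core begins 44, 19 and 48 bases before the start, on the minus, plus and minus strand. In the 300-base windows it was found in 33 of the 50 promoters of the replication list (66.0%, for 41 of its genes), and in 22 of the 34 promoters of list members called lower and 11 of the 16 of members not called. It was found in 40.5% of the 1891 promoters of all called lower genes, in 24.9% of the 814 of called higher genes, in 27.5% of those of all genes tested and in 20% of all 32851 promoters in the table. Among the 6646 genes with the highest mean level the share was 37.5%, close to that of the called lower genes. Promoters of called lower genes also held more G and C, a median of 61.7% against 57.0% for called higher genes. The other motifs searched on both strands were AGATAA, the GATA core, in 9.95% of promoters of called higher and 6.29% of called lower genes, CACACCC, a core bound by KLF1, in 8.11% and 7.56%, and TTTGAA, the cell cycle homology region, in 15.1% and 11.1%; over all genes tested the shares were 9.25%, 8.41% and 14.8%.

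Of 38 measured genes of nucleotide synthesis 16 were called lower (42.1%, against 9.21% of all genes and 25.3% of the genes with the highest mean) and 1 higher. The median difference was -0.40, 21 of the 38 were not called, and 10 were called lower without the CD71med array of embryo 15. The purine pathway held the largest change. Atic, which carries out its last steps, read 9.45, 9.90 and 9.86 in CD71+ and 8.29 and 7.72 in CD71med cells, 3.32-fold lower (adjusted p = 0.000223). Prps2, which makes the ribose donor, was 2.66-fold lower, and the folate enzymes Mthfd1 and Shmt2 were 3.17-fold and 1.99-fold lower. Of the pyrimidine pathway, Cad was 2.33-fold lower, Dut, which removes dUTP, 2.23-fold lower and Ctps fell by 1.0. Rrm2 and Tyms, which supply deoxynucleotides, did not pass the test, with differences of -0.12 (adjusted p = 0.578) and -0.18 (adjusted p = 0.32). The member that rose was Nt5c3, the pyrimidine nucleotidase of red cells, 2.23-fold higher.

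Among G1 regulators 6 of 18 were called lower (33.3%, against 9.21% of all genes) and 2 higher, and without the CD71med array of embryo 15 the calls numbered 1 in each direction. Of the 6646 genes with the highest mean, to which 14 of the 18 belong, 25.3% were called lower. Cdk4, the kinase that pairs with D-type cyclins, read 9.61, 9.91 and 10.04 in CD71+ and 8.43 and 7.76 in CD71med cells, 3.38-fold lower (adjusted p = 0.00038). Cyclin E1, Ccne1, read 10.42, 10.15 and 10.41 against 9.37 and 9.28, 2.0-fold lower, with an adjusted p of 0.0634 without the CD71med array of embryo 15. The cyclin of quiescent cells Ccng2 was 2.77-fold higher, and Cdkn1b, which encodes the inhibitor p27, 2.10-fold higher, with an adjusted p of 0.0679 without that array. Myc, the growth factor-driven activator of ribosome and nucleotide genes, read 8.38, 8.69 and 8.67 against 7.08 and 6.72, 3.21-fold lower (adjusted p = 7.04e-05). Mxd1, its antagonist, read 9.34, 9.28 and 9.54 against 10.27 and 10.41, 1.94-fold higher (adjusted p = 0.000348). For Cdk4, Myc and Mxd1 the 2 groups did not overlap, as was so for 2654 of the 2656 called genes. Of 19 genes of the E2F and retinoblastoma family 2 were called lower, and none were called in 4 of the 5 fits that left out an array.

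Few mitotic genes were called. Of 62 measured genes of mitosis none were called lower and 2 higher (3.23%), and the median difference was -0.02. Over all genes 9.21% were called lower and 4.11% higher. Of the 6646 genes with the highest mean, to which 61 of the 62 belong, 25.3% were called lower and 6.11% higher. The list's mean level was 10.48 to 10.56 in the CD71+ arrays and 10.57 and 10.42 in the CD71med arrays of embryos 13 and 15, which overlapped. The 2 called members, Fzr1 (0.72, adjusted p = 0.028), an activator of the anaphase-promoting complex, and Pttg1 (0.60, adjusted p = 0.0363), securin, were not called in every fit: without the CD71med array of embryo 15 their adjusted p-values were 0.193 and 0.223, and with the embryo as a block that of Fzr1 was 0.0876. In the preceding step 48 of the 62 were called higher, with a median of 0.66. Replication-dependent histones had 1 member of 27 called in each direction (3.7%, against 4.11% of all genes called higher and 9.21% lower). Their median was 0.01, where the preceding step had called 25 higher with a median of 1.15. The difference between the steps was called for 10 of these 27 histone genes and 7 of the 62 mitotic genes, each time toward a less positive difference in the CD71med step, against 0.777% of all genes. Histone genes are near-identical copies and their probes may share signal.

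**Figure D3:**
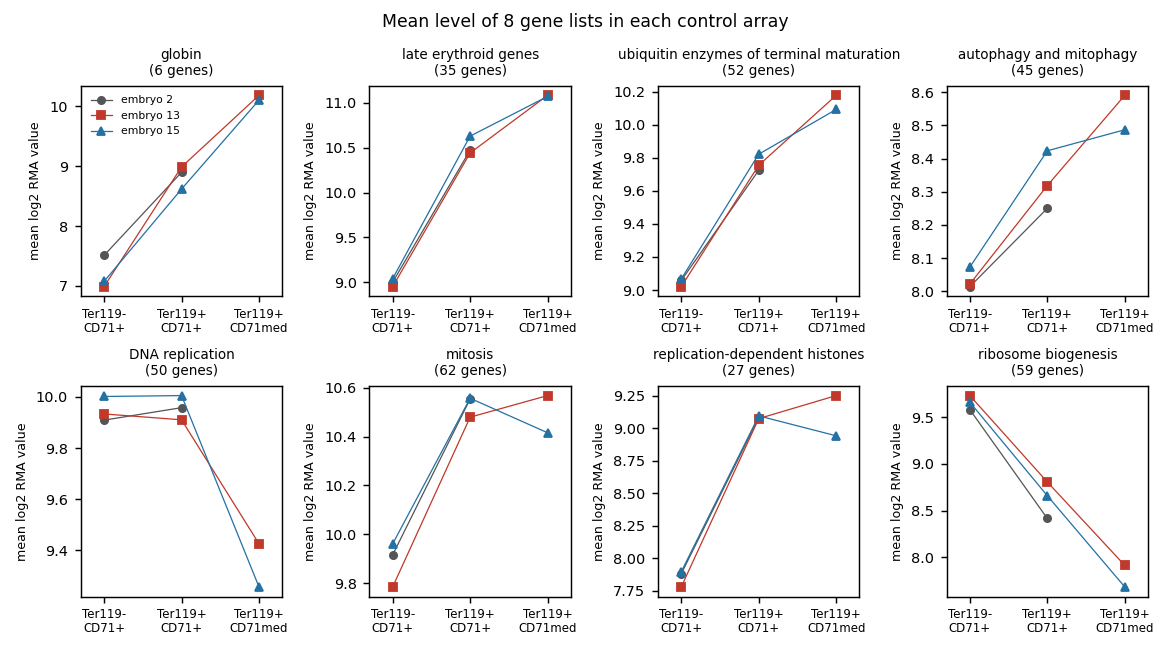
Mean log2 RMA value of 8 gene lists in each control array, with the populations in order of maturation on the x axis and lines joining the arrays of an embryo. Globin, late erythroid, ubiquitin and autophagy genes lie higher in both CD71med arrays than in each CD71+ array, replication and ribosome biogenesis genes lie lower, and the CD71med arrays of mitotic and histone genes overlap the range of the CD71+ arrays.

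Most genes of ribosome production were called lower. Of 59 measured genes of ribosome biogenesis 39 were called lower (66.1%) and none higher, with a median of -0.83. Over all genes 9.21% were called lower, and of the 6646 genes with the highest mean 25.3%. The list's mean level was 8.41 to 8.81 in CD71+ and 7.68 and 7.91 in CD71med arrays. There were 20 lower calls without the CD71med array of embryo 15, 25 without the CD71+ array of embryo 13 and 26 without the CD71+ array of embryo 15. Utp20, a component of the small-subunit processome, read 7.37, 7.67 and 7.58 in CD71+ and 6.10 and 5.85 in CD71med cells, 2.97-fold lower (adjusted p = 0.000222). Polr1a, the large subunit of RNA polymerase I, was 2.76-fold lower, at 8.0, 8.24 and 8.18 against 6.81 and 6.55. Both genes were lower in each CD71med array than in each CD71+ array. Mybbp1a, Pes1 and Nolc1, nucleolar proteins, were 2.83-fold, 2.77-fold and 2.68-fold lower, and fibrillarin, Fbl, which methylates ribosomal RNA, was 2.40-fold lower. Another probe set of Fbl, also called, differed by -0.42. Nucleolin, Ncl, was not called, at -0.16 (adjusted p = 0.492). In the preceding step 52 of the 59 were called lower, with a median of -1.04, and the difference between the steps was called for none of the 59.

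Of 60 ribosomal proteins measured, 15 were called lower (25%) and 1 higher, with a median of -0.23. Of the 60, 56 lie among the 6646 genes with the highest mean, of which 25.3% were called lower, so the share is that of other genes of their level. Without the CD71med array of embryo 15, 4 were lower and without the CD71+ array of embryo 13, 8 were. Rps28, Rpl8, Rplp1 and Rps18 fell by 0.87, 0.83, 0.68 and 0.66. Many ribosomal protein genes have processed pseudogenes whose sequence the probes may share. Of 20 aminoacyl-tRNA synthetase genes 15 were called lower, with a median of -0.71; 7 were called without the CD71med array of embryo 15. The synthetase share of 75% stood against 9.21% of all genes and 25.3% of the genes with the highest mean. Tars, Yars and Qars, for threonine, tyrosine and glutamine, fell by 0.98, 0.94 and 0.94. Of 40 translation factors 13 were called lower (32.5%) and 2 higher (5%), and all 40 lie among the genes with the highest mean. Of these factors Eif2b1, a subunit of the exchange factor of initiation, fell by 1.43, and Eif5, which triggers GTP hydrolysis at the start codon, was higher by 0.62. Without the CD71med array of embryo 15 there were 5 lower calls among them.

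Mitochondrial genes were described as 2 lists. Of 74 proteins of the mitochondrial ribosome 33 were called lower (44.6%) and 1 higher, with a median of -0.61. Of 82 subunits of the respiratory chain and ATP synthase 6 were called lower (7.32%) and none higher, with a median of -0.02, near the 0.08 of all genes. Over all genes 9.21% were called lower, and of the 6646 genes with the highest mean 25.3%. Mrps35 read 6.73, 6.92 and 6.94 in CD71+ and 5.63 and 5.60 in CD71med cells, 2.37-fold lower (adjusted p = 0.000113). Mrpl52, Mrpl47 and Mrps23 fell by 1.07, 1.03 and 1.0. Another probe set of Mrpl47 differed by -0.14, and not every probe set of that gene was called. The lower calls of the mitochondrial ribosome numbered 8 without the CD71med array of embryo 15, 18 without the CD71+ array of embryo 15 and 20 without that of embryo 13. Whether the 2 lists differ was not tested. The respiratory gene that was called in every fit was Atp5g2, which encodes subunit c of the ATP synthase and fell by 1.06.

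Amino acid, glucose and protein-folding genes were called lower in part. The shares called lower were 38.1% of glycolytic, 22.2% of stress response and 37.5% of chaperone genes. Over all genes 9.21% were called lower, and of the 6646 genes with the highest mean 25.3%. Of 21 glycolytic genes 8 were called lower and 1 higher; Ldha, lactate dehydrogenase, read 11.22, 11.38 and 11.56 in CD71+ and 10.05 and 9.85 in CD71med cells, 2.71-fold lower (adjusted p = 7.6e-05), and Pfkm and Tpi1 fell by 1.05 and 0.96, while the member that rose was Bpgm. Of 27 genes of the integrated stress response 6 were called lower and 1 higher. All 6 are among the 20 members that belong to the genes with the highest mean. Psat1 and Psph, of serine synthesis, were 2.87-fold and 1.67-fold lower, Slc7a1, the arginine carrier, 2.31-fold lower and Asns, asparagine synthetase, 1.34-fold lower. Of 32 cytosolic and mitochondrial chaperones 12 were called lower and 4 higher: Fkbp4 and Hspe1 fell by 1.10 and 0.99 and the chaperonin subunits Cct2 and Cct4 by 0.72 and 0.71, and the DNAJ proteins Dnaja4 and Dnajb6 were higher by 0.92 and 0.85. Without the CD71med array of embryo 15 the lower calls of these lists were 3, 4 and 6.

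Nuclear transport genes were called lower in 25 of 48 and higher in 2, with a median of -0.47. All 48 lie among the 6646 genes with the highest mean. Of those 25.3% were called lower, and of all genes 9.21%, against 52.1% of the list. Nup54, a central-channel nucleoporin, read 8.44, 8.73 and 8.51 in CD71+ and 7.46 and 7.02 in CD71med cells, 2.50-fold lower (adjusted p = 0.000281), and the carriers Xpo6 and Ipo5 were 2.10-fold and 2.04-fold lower. Xpo7, a late erythroid exportin, went the other way, at 11.50, 12.01 and 12.19 against 12.78 and 12.77, 1.84-fold higher, with an adjusted p of 0.0517 without the CD71med array of embryo 15. In that fit 8 transport genes were lower, and without the CD71+ array of embryo 15, 14 were. Of 50 splicing factors 13 were called lower (26%) and 1 higher, near the 25.3% of the genes with the highest mean, to which all 50 belong, and 3 were lower without the CD71med array of embryo 15. Mbnl3, a muscleblind protein, was 2.28-fold lower, at 9.21, 9.09 and 9.20 against 7.99 and 7.97.

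Lists that define the red cell itself had few calls at this step. Of 24 genes of heme synthesis and transport 2 were called higher and 3 lower, and of 24 genes of iron handling 1 was higher and 4 lower, with medians of 0.05 and -0.10. Hmox1, which breaks heme down, was higher by 0.96, with an adjusted p of 0.06 without the CD71med array of embryo 13, and Slc25a39, a mitochondrial carrier, was higher by 0.74, with an adjusted p of 0.0917 without that of embryo 15. Iscu, the scaffold on which iron-sulfur clusters are built, read 10.10, 10.50 and 10.38 against 11.04 and 11.03, 1.63-fold higher. Of 16 membrane skeleton genes 3 were higher and none lower, and of 34 surface proteins and channels 3 were higher and 4 lower. The skeleton's share of higher calls, 18.8%, stood against 4.11% of all genes. The lower shares of the heme, iron and surface lists, 12.5%, 16.7% and 11.8%, stood against 9.21% of all genes. They lay below the 25.3% of the 6646 genes with the highest mean. To these belong 22 of the 24 heme genes, 22 of the 24 iron genes and all 34 surface genes. Once the CD71med array of embryo 15 was left out, no skeleton gene was called, the surface list had 1 call in each direction, and the heme and iron lists had 1 higher call each and no lower one. Cd44, an adhesion receptor used to stage erythroblasts because it declines with maturation, read 6.52, 6.93 and 7.04 in CD71+ and 6.01 and 5.77 in CD71med cells, 1.92-fold lower (adjusted p = 0.00117). In the preceding step 14 of the heme genes, 11 of the skeleton genes and 24 of the surface genes had been called higher.

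Of 30 erythroid transcription factors 2 were called higher and 3 lower, and only Bcl11a was called in every fit. Klf1, which drives adult beta globin and the membrane genes, differed by -0.01 (adjusted p = 0.973). Of 32 genes of enucleation and the cytoskeleton 4 were called lower and 2 higher: Rac2, a GTPase of the contractile ring, was 2.50-fold lower, at 9.62, 9.33 and 9.84 against 8.16 and 8.40, and Capzb, an actin capping protein, was 2.0-fold lower. Glrx, a glutaredoxin, was 2.51-fold higher and Bach1, the heme-sensing repressor, 1.63-fold higher, among 4 of 31 antioxidant genes called higher and 3 lower. The higher shares of the factor, enucleation and antioxidant lists were 6.67%, 6.25% and 12.9%, against 4.11% of all genes. Their lower shares were 10%, 12.5% and 9.68%, against 9.21% of all genes. They lay below the 25.3% of the 6646 genes with the highest mean. To these belong 23 of the 30 factors, 26 of the 32 enucleation genes and 30 of the 31 antioxidant genes.

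Genes of cell death were little changed in number. Of the BCL2 family 5.88% were called higher and 5.88% lower, against 4.11% and 9.21% of all genes. Of 17 members of the BCL2 family 1 was called higher, Bcl2l1, and 1 lower, the death effector Bak1, which was 2.0-fold lower with an adjusted p of 0.121 without the CD71med array of embryo 15. Of 20 caspases and apoptosis genes 4 were lower (20%, against 9.21% of all genes) and 1 higher (5%, against 4.11%). Casp8, the caspase of death receptors, and Apaf1, the scaffold of the apoptosome, fell by 0.86 and 0.61. Of 23 targets of p53, 3 were higher (13%), among them Gadd45a and Sesn1, the latter by 0.84, and 1 was lower (4.35%). The caspase list had 2 lower calls and the p53 list 2 higher ones without the CD71med array of embryo 15. The remaining lists had few calls: of 30 genes of KIT and erythropoietin signalling 2 were higher and 3 lower, of 27 stem and progenitor genes 1 and 1, of 36 genes of condensins, lamins and chromatin 0 and 3, of 22 chaperones of the endoplasmic reticulum 1 and 2, and of 17 adhesion receptors 1 and 2, against 4.11% and 9.21% of all genes. Larger shares were called lower in the MYC and MXD family, 3 of 12 (25%) with 2 higher, and in cholesterol synthesis, 4 of 23 (17.4%) with 1 higher, or 8 of 23 with the embryo as a block. Neither share exceeded the 25.3% of the 6646 genes with the highest mean, to which 8 of the 12 and 16 of the 23 belong. Both lists kept fewer lower calls without the CD71med array of embryo 15.

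**Figure D4:**
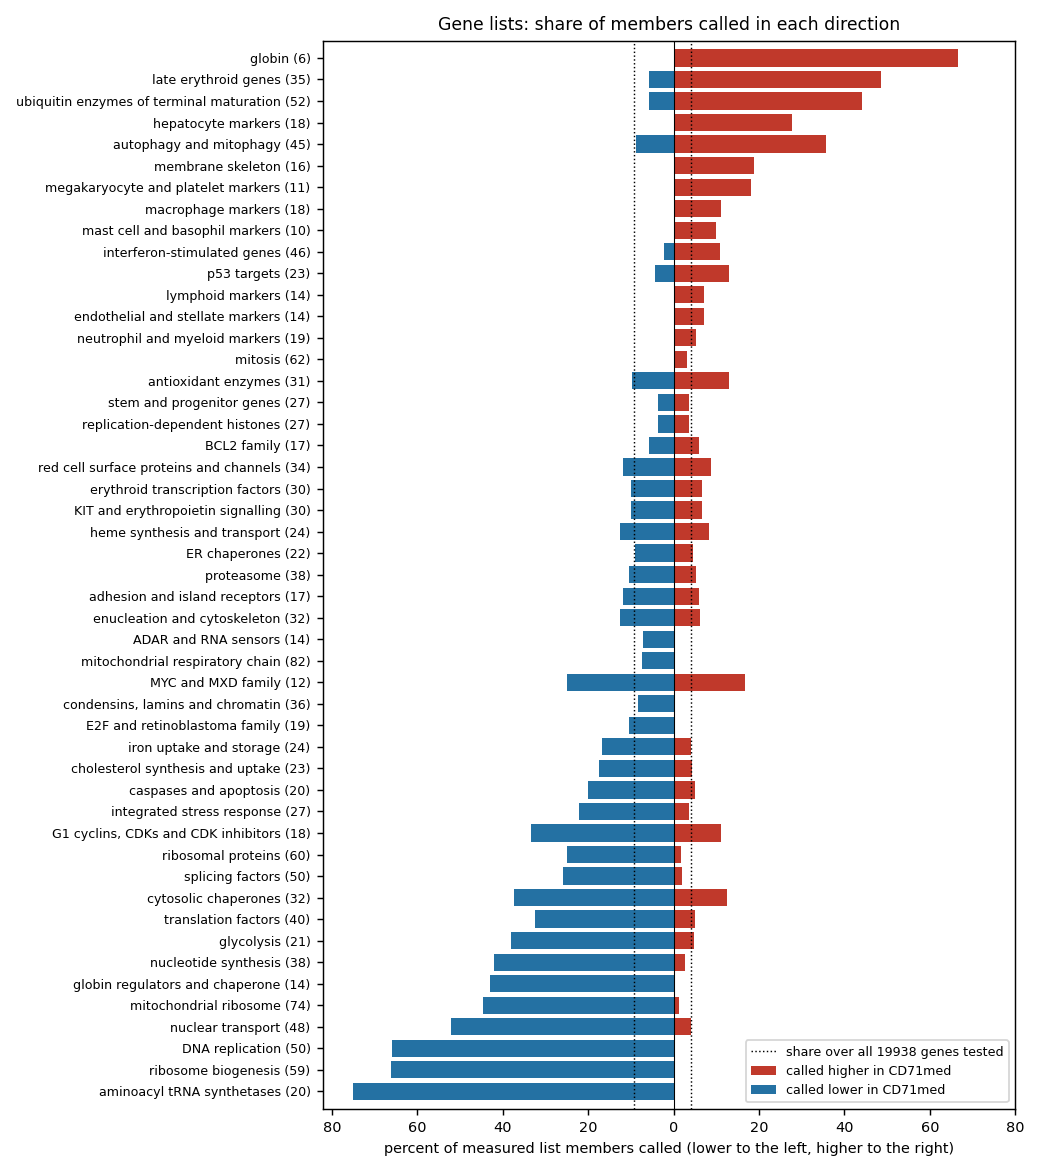
Share of the measured members of 49 gene lists called higher (red, to the right) or lower (blue, to the left) in CD71med than in CD71+ cells, in percent, with the number of measured genes in brackets. Dotted lines give the shares over all genes tested, 4.11% and 9.21%. Globin, late erythroid, ubiquitin and autophagy lists reach 35.6% to 66.7% on the right, and tRNA synthetase, ribosome biogenesis, replication and nuclear transport lists reach 52.1% to 75% on the left.

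Interferon-stimulated genes held some of the largest rises. Of 46 measured, 5 were called higher (10.9%, against 4.11% of all genes) and 1 lower (2.17%, against 9.21%). The median difference was 0.27, against 0.08 over all genes. Positive differences numbered 41 of the 46, and 12451 of 19938 over all genes. The CD71med arrays lay wholly above the CD71+ arrays for 14 of the 46, where 25% of all genes did. Ifit1 read 5.10, 5.86 and 6.18 in the CD71+ arrays of embryos 2, 13 and 15 and 7.86 and 7.92 in the CD71med arrays, 4.53-fold higher (adjusted p = 0.00108), and was called in every fit. Rsad2 read 5.89, 6.71 and 7.70 against 8.53 and 9.33, and Oasl2 was 2.74-fold higher with an adjusted p of 0.0671 without the CD71med array of embryo 13. In Ifit1 and Rsad2 the CD71+ array of embryo 15 was the highest and that of embryo 2 the lowest. Ifit2 was lower, by 1.44, and lost its call without the CD71med array of embryo 15 (adjusted p = 0.148). The higher calls numbered 12 without the CD71+ array of embryo 15, 2 without the CD71med array of embryo 15 and 3 in the other fits that left out an array. Of 14 genes of ADAR and the sensors of double-stranded RNA none were called higher and 1, Ilf2, lower, with an adjusted p of 0.066 without the CD71med array of embryo 15.

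Markers of other cells of the fetal liver were also higher in the CD71med arrays. The mean of the neutrophil and myeloid list, 19 genes, was 5.38 to 5.63 in the CD71+ arrays and 6.09 and 6.15 in the CD71med arrays, and that of the hepatocyte list, 18 genes, was 6.37 to 6.52 against 6.88 and 6.90. The 5 lists of macrophage, megakaryocyte, lymphoid, mast cell and endothelial markers also lay higher in both CD71med arrays, by smaller steps. In the preceding step 9 of 18 hepatocyte (median 0.44), 4 of 11 megakaryocyte and 1 of 10 mast cell markers had been called higher, against 7.27% of all genes. No myeloid, macrophage, lymphoid or endothelial marker had been called higher there, and 1 of 14 endothelial markers had been called lower. The CD71med arrays lay wholly above the CD71+ arrays for 13 of 19 myeloid and 9 of 18 hepatocyte markers, where 25% of all genes did. Of single markers, 1 of 19 myeloid, 5 of 18 hepatocyte, 2 of 18 macrophage, 2 of 11 megakaryocyte, 1 of 14 lymphoid, 1 of 10 mast cell and 1 of 14 endothelial markers were called higher and none lower. The shares of 27.8% for hepatocyte, 18.2% for megakaryocyte, 11.1% for macrophage and 10% for mast cell markers exceeded the 4.11% of all genes and the 2.95% of the genes with the lowest mean. These lists had 3, 1, 0 and 1 calls without the CD71med array of embryo 15. Lyz1, a lysozyme, was 2.01-fold higher, Cpa3, a mast cell protease, 2.47-fold higher at 3.91, 3.99 and 3.89 against 5.42 and 5.05, and Apoa2, a liver apolipoprotein, 2.21-fold higher at 7.20, 7.19 and 6.92 against 7.98 and 8.51. Mpo, the myeloperoxidase of granulocyte precursors, read 6.09, 6.46 and 6.96 against 7.91 and 7.67 without passing the test (adjusted p = 0.0734), and albumin, Alb, read 9.40, 8.99 and 9.08 against 9.80 and 9.81 (adjusted p = 0.251). No defining marker can be said to be absent on this scale. Clec4e, Anxa1 and the interferon-stimulated genes are also expressed by myeloid cells, and the part of other cells in their rise was not tested; nor was that of the general upward shift of dim genes, whose median difference was 0.14.

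**Figure D5:**
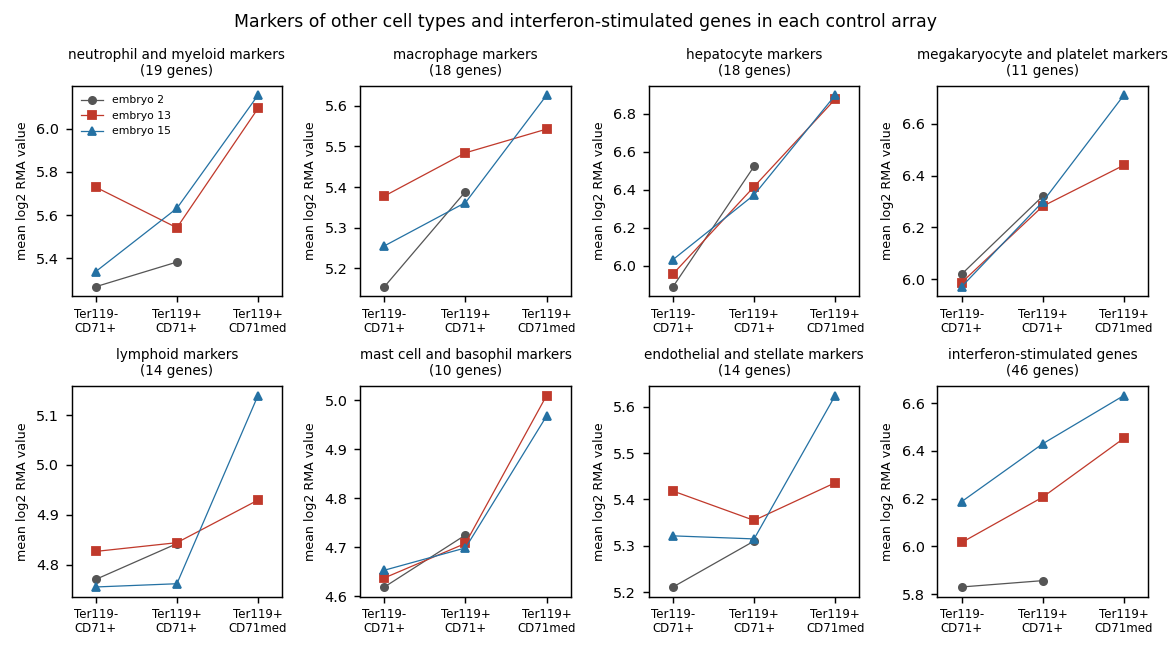
Mean log2 RMA value of 7 lists of markers of other fetal liver cells and of the interferon-stimulated genes in each control array, drawn as in the plot of gene lists by population. In all 8 panels both CD71med arrays lie above each Ter119+ CD71+ array, and for the interferon-stimulated genes the CD71+ array of embryo 15, at 6.43, lies close to the CD71med range of 6.45 to 6.63.

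The pace of change differed between the CD71med step and the step before it for a small set of genes. A test of the difference between the 2 steps called 266 genes (1.33%), 111 with a more positive and 155 with a more negative change in the CD71med step. Both steps contain the CD71+ arrays. The count fell to 24 without the CD71+ array of embryo 2, to 56 without that of embryo 15, to 105 and 170 without the CD71med arrays of embryos 15 and 13, and to 152 with the embryo as a block. The 10 genes named here, 5 on each side, have the smallest adjusted p of the step difference and were called in each of those fits that left out an array. Kit, the stem cell factor receptor, read 8.77, 8.63 and 8.71 in the Ter119- CD71+ arrays, 5.72, 5.51 and 5.73 in the Ter119+ CD71+ arrays and 6.14 and 5.88 in the CD71med arrays. On this scale no further fall followed its fall of 3.05 log2 units in the first step (adjusted p of the step difference = 0.000416). Its Ter119+ CD71+ values lay near the medians of those arrays, 5.73 to 5.81. Whether a further fall could be seen at that level was not tested. Myb, a transcription factor of progenitors, had the same course, at 8.93, 8.98 and 8.80, then 6.38, 6.65 and 6.58, then 6.62 and 6.83 (adjusted p = 0.000126). Bcl9 did so too, while Ube2d1 and Scamp1 fell in the first step and rose in the second, Ube2d1 by 0.61 and Scamp1 by 0.97.

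Genes on the other side had risen steeply and then slowed. Xpo7 rose by 3.77 log2 units in the preceding step and by 0.88 in the CD71med step, a difference of -2.89 (adjusted p = 0.000416). Gpcpd1, a phosphodiesterase gene, had an adjusted p of the step difference of 0.00195, as had Bcl2l1 and Tent5c. Gpcpd1 rose by 3.03 and then 1.03, with values of 8.17, 7.69 and 8.02 in Ter119- CD71+ cells, 10.78, 11.01 and 11.18 in Ter119+ CD71+ cells and 12.08 and 11.98 in CD71med cells. The highest value on any array was 13.51. Whether the upper end of the scale limited the second rise of Xpo7 and Gpcpd1 was not tested. Cdkn2d, which encodes the CDK4 and CDK6 inhibitor p19, rose by 2.87 in the first step and read 9.65, 9.32 and 9.54, then 9.87 and 10.03, in the second, where it did not pass the test (adjusted p = 0.079). The histone gene H2bc4 rose by 3.58 and the globin Hbq1b by 2.61 in the preceding step, against differences of 0.73 and 0.47 in the CD71med step, of which the first lost its call without the CD71med array of embryo 15 (adjusted p = 0.151) and the second was not called. Of 35 late erythroid genes 11 were called for a smaller rise in the CD71med step and none for a larger one, against 0.777% and 0.557% of all genes.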

How the data were processed

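The deposited values are log2 expression values; the authors used RMA to make them, as the submitters' processing notes list it, and those notes also name the build mm9 without a role; further steps are not given in the sources used here. Of 35556 probe sets, 21789 list 1 gene symbol, 1621 several and 12146 none in the platform annotation. For genes with more than 1, the probe set of highest average level across all arrays was kept, giving 19938 genes. Of the 999 genes with several probe sets, 233 had any of them called when each was tested. For 90 of the 233 every probe set was called, and for 37 the probe sets differed in sign. limma 3.58.1 in R 4.3.3 fitted 5 group means to all 13 arrays, with Benjamini-Hochberg adjustment and calls at an adjusted p under 0.05; the code was tested on simulated data. Named genes are the sort and genotype genes, the 15 largest called differences in each direction whose arrays do not overlap (predicted genes passed over), up to 4 members of each list by adjusted p, and 5 genes in each direction of the step difference. Further list members that illustrate a group were chosen after their values were seen. The comparison, its lists and tests were chosen with earlier results of these data known. Same-numbered arrays are read as the same embryo. The deviations of their CD71med and CD71+ arrays from the group means correlated at 0.218 (embryo 13) and 0.0119 (embryo 15). Between arrays of different embryos the correlations ran from -0.218 to 0.204. With 2 CD71med arrays the deviations of the 2 are exact opposites, so these values cannot decide whether the reading holds. Promoter sequences come from RefSeq (GRCm38.p6) and were available for 15614 of the 19938 genes. Alternatives were other normalizations, filters, probe set rules, variance models, subsets of arrays, array weights and embryo blocks. The number of arrays limits the precision.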

Additional observations from a re-analysis of the deposited data

Results flagged for a closer look

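Probe sets that the gene-level comparison did not use also differed between the CD71med and CD71+ control arrays. Of 1621 probe sets listed with several genes 83 were called (5.12%), 13 higher and 70 lower. Of 12146 probe sets with no listed gene 306 were called (2.52%), 188 higher and 118 lower. The largest called changes among them were rises. The leading one read 5.14 in CD71+ and 8.43 in CD71med cells, a rise of 3.29 log2 units. Those after it rose by 3.20 and 2.96. Each exceeds the 2.72 of Hbb-y, the largest rise of a gene. What these probe sets measure was not examined. The part of such signal in the rises of dim genes was not tested. The cause was not tested.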

How the results depend on the processing

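The counts of genes called higher, called lower and called for a step difference were 820, 1836 and 266. Genes called higher numbered 469 with median-centred arrays, 535 with the 5 arrays compared only and 487 with array weights, and the lower count stayed within 1.5 times its value under each alternative other than leaving out an array. The step difference was called for 124 genes with median-centred arrays, 427 with array weights and 152 with the embryo as a fixed replicate block. That block moved no other count of calls over all genes by more than 1.5 times, and of the genes described that the naming rule chose it changed the call of Fzr1 and Hbq1b, and as a random block the embryo had a consensus correlation of 0.00385. Over the fits that each left out an array the higher calls ranged from 332 to 1125, the lower calls from 535 to 1767 and the step differences from 24 to 299. The CD71med step of Bcl9, not called and near 0, turned to -0.0538 with quantile normalization repeated, -0.0423 with median-centred arrays and -0.0226 with the fixed replicate block. The cause was not tested in any of these. With 2 CD71med arrays, leaving out either leaves 1, assumed to vary like the other groups.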
